A study of Mus musculus with 6 samples.

Results

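The 42 genes described here encode proteins that carry cells into and through mitosis: the kinases and cyclins of mitotic entry, the spindle checkpoint and anaphase switch, the centromere, the spindle, the cytokinesis machinery and 2 proteins of mitotic chromosomes. They are a list of names taken from what is known of cell division, and no threshold on a measured value set it, though it was drawn up with earlier results of these data known. All 42 were among the 14003 genes in the deposited table, and all 42 were among the 10338 genes tested. The RNA came from MC3T3-E1 cells, a wild-type preosteoblast line from mouse calvaria. The 3 control libraries came from untreated cells at 24 h, and the labels name no vehicle. The 3 sulfasalazine libraries came from cells given 200 µM of the drug for 24 h. Sulfasalazine is an anti-inflammatory drug that also inhibits the cystine importer xCT.

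Mitosis begins when the kinase Cdk1, bound to a B-type cyclin, is switched on by CDC25 phosphatases. Aurora and polo-like kinases then build the spindle and attach it to kinetochores, and the spindle checkpoint holds back the anaphase-promoting complex until every chromosome is attached. Ubiquitination of cyclin B and securin by that complex starts anaphase, after which kinesins, a guanine nucleotide exchange factor and anillin divide the cell. Transcripts of most of these proteins accumulate in the G2 and M phases of cycling cells. The repressive DREAM complex and the activating MuvB, B-Myb and FoxM1 proteins are known to act on their promoters through the CHR element and CCAAT boxes.

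Reads recovered from the deposited values numbered 15980942 to 21579133 per library. Control replicate 3 had the fewest. Expression is given as FPKM, fragments scaled to gene length and to the mapped fragments of the library, so that levels of different genes can be compared. In RNA from a whole culture, fewer dividing cells and less RNA per dividing cell cannot be told apart. Separate cultures are not named in the labels, so p-values cover only the variation among these libraries, and it may be technical variation. The labels name no difference of batch between the libraries, and batch was not tested. Of 10 osteoblast markers, 6 had values and 2 (Runx2 and Spp1) reached a mean of 1 FPKM. The osteoblast list, nearly all of it from these 2 genes, summed to 1539 to 2098 FPKM in the controls and 869 to 1078 FPKM after the drug. Of 8 epithelial markers, 6 had values and 4 (Cdh1, Krt8, Krt18 and Krt19) reached it. That list summed to 1293 to 1452 FPKM in the controls and 1884 to 2093 FPKM with sulfasalazine. Cd68 was the 1 macrophage marker of 6 at that level, with the list summing to 31.7 to 56.2 FPKM in the controls and 16.3 to 27.7 FPKM with sulfasalazine. No endothelial, muscle or adipocyte marker reached 1 FPKM. The part of these markers in the results was not tested.

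Promoter sequence was matched by symbol for 34 of the 42 genes, as the 250 bases before the RefSeq start (GRCm38.p6). Both strands were searched for the CHR element (TTTGAA), for CCAAT, and for E2F sites (TTCCCGC or TTGGCGC). Overlapping matches were counted separately, and CCAAT on one strand can share its bases CCAA with GCGCCAA, the E2F site read on the other. CCAAT was found in 27 of the 34 promoters (79.4%), against 37.3% of 8328 promoters of tested genes and 33.8% of all 32851 entries. At least 2 matches of CCAAT stood in 18 (52.9%), against 14.7% of tested genes. The CHR letters were in 10 (29.4%, against 9.89%) and E2F letters in 3 (8.82%, against 11.1%). The 12 matched genes called lower below held CHR letters in 6 cases and CCAAT in 11. The 20 matched genes that were not called held them in 3 and 15. This grouping is by the fit to all 6 libraries. Most of the 20 were called lower without replicate 3 of both groups, as were 36.8% of all genes tested. A match is a description of these letters and not a site of binding. The 5 promoters printed here are those of 2 genes with lower levels after sulfasalazine (Cdk1, Ube2c), the B-type cyclins Ccnb1 and Ccnb2, of which Ccnb2 rose, and Pttg1, which had the largest rise. Sequences run 5′ to 3′ on the strand of the gene, with CHR and CCAAT matches on either strand in capitals. The coordinates are chr10:69352913-69353162 (minus strand) for Cdk1, chr2:164769679-164769928 (plus strand) for Ube2c and chr13:100786487-100786736 (minus strand) for Ccnb1. They are chr9:70421555-70421804 (minus strand) for Ccnb2 and chr11:43425982-43426231 (minus strand) for Pttg1.
Cdk1: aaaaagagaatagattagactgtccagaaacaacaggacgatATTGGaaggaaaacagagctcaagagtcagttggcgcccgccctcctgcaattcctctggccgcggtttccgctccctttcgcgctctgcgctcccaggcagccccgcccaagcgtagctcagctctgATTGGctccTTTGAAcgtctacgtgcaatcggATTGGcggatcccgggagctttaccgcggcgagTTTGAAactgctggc
Ube2c: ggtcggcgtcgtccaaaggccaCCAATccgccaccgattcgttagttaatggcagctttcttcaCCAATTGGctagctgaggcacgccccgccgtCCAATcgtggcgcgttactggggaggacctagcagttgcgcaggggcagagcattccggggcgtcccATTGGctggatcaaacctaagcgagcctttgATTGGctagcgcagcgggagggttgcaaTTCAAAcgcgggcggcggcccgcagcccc
Ccnb1: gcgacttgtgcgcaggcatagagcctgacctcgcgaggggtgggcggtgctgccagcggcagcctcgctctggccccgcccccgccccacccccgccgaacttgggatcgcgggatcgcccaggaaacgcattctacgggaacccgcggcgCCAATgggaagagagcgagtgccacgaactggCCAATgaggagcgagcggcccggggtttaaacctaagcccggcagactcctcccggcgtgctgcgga
Ccnb2: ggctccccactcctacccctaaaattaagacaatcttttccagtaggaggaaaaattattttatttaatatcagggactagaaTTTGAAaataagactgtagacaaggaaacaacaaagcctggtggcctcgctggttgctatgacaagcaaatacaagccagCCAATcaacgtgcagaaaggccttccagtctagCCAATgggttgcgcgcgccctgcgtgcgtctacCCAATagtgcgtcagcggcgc
Pttg1: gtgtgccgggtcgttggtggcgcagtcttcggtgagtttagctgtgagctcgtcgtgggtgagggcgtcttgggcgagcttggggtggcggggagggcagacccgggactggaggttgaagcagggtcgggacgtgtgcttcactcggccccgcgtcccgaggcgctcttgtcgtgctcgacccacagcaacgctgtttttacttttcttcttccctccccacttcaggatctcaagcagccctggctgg
Cdk1 held 2 CHR and 3 CCAAT matches, and Ube2c held 1 and 6. Ccnb2 held 1 and 3. Ccnb1 held 2 CCAAT matches, 1 of them sharing bases with an E2F match, and no CHR letters. Cdk1 also held 1 E2F match. Pttg1 held none of the motifs in this window. Its window lies inside the gene as bounded in GENCODE M21 (43420250 to 43426251), so the bases before that start were not searched. The windows of Cdca8, Kif2c and Kif4 also lie inside those bounds of their genes.

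With all 6 libraries, 13 of the 42 mitosis genes fell after sulfasalazine and 3 rose (limma on log2(FPKM + 1), Benjamini-Hochberg adjusted p under 0.05 over all genes tested). The 26 others did not pass the test. The genes that fell were Cdk1, Cdc25b, Aurka, Tpx2, Cdca8, Cdc20, Bub1b, Bub3, Ube2c, Kif11, Anln, Prc1 and Ect2, and the genes that rose were Pttg1, Ccnb2 and Kif20a. Falls were called for 31.0% of the mitosis genes and for 29.3% of all genes tested, so the share was near the background. Rises were called for 7.14% of the mitosis genes and 37.2% of all genes tested. The median log2 fold change was -0.67 over the mitosis genes and 0.08 over all genes. Median-of-ratios scaling (33.6% of all genes called lower) and quantile normalization (34.1%) each called 20 falls. Limma voom on the recovered reads called 17 falls (29.2% of all genes) and 3 rises (37.6%).

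The count of falls turned on replicate 3. Sulfasalazine replicate 3 was the highest treated library in 41 of the 42 genes, so leaving it out lowers their treated mean. The p-values and calls of fits that leave out replicate 3 of 1 group or of both describe how far results depend on those libraries. They are no separate evidence of a fall. Without sulfasalazine replicate 3, 30 mitosis genes were called lower (71.4%, against 28.4% of all genes) and 3 higher (7.14%, against 34.2%). Without replicate 3 of either group, 34 were called lower (81.0%, against 36.8%) and the same 3 genes higher (41.0% of all genes). Without control replicate 3 alone, 19 were called lower (34.1% of all genes). The count was 9 without control replicate 2 (25.1% of all genes) and 9 without sulfasalazine replicate 2 (23.7%). The median log2 fold change was -1.01 without sulfasalazine replicate 3 and -1.12 with replicate 3 left out of both groups. In sulfasalazine replicates 1 and 2, 32 of the 42 genes were below all controls (36.4% of all genes tested were). In all 3 sulfasalazine libraries 12 were (31.1%), and 3 were above all controls (40.3%).

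**Figure D1:**
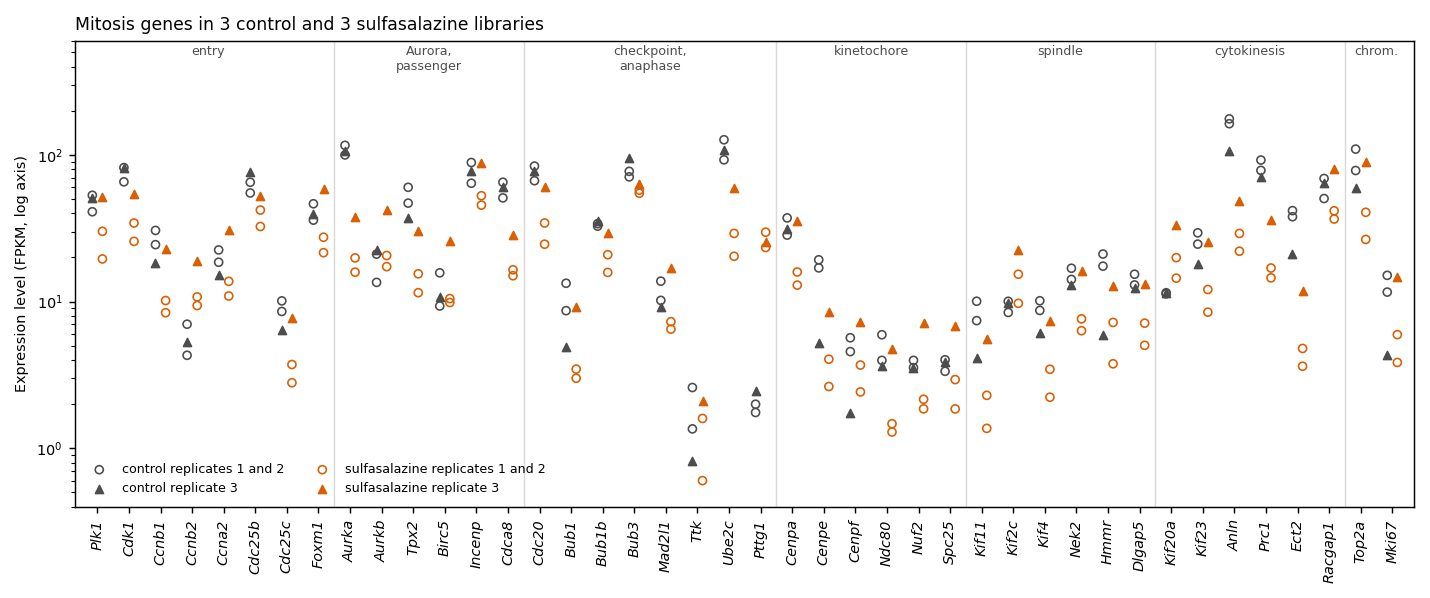
Expression of the 42 mitosis genes in FPKM on a log axis, with 1 point per library, grouped by the role of the protein. Grey symbols are the 3 control libraries, orange symbols the 3 sulfasalazine libraries, and triangles mark replicate 3. In 41 of the 42 genes the orange triangle is the highest of its group.

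Among the 8 genes of mitotic entry, Cdk1 and Cdc25b fell, Ccnb2 rose and the other 5 did not pass the test. Per-library values are given here and below in the order of replicates 1, 2 and 3. Cdk1, the catalytic kinase, stood at 65.5, 81.9 and 81.5 FPKM untreated and 34.3, 25.7 and 54.03 FPKM after the drug, with no overlap (log2 difference -1.04 with SE 0.24, adjusted p = 0.00575 by limma). The phosphatase gene Cdc25b, which activates Cdk1, had 55.02, 65.1 and 75.9 FPKM untreated and 42.1, 32.5 and 52.5 FPKM after the drug (log2 difference -0.63 with SE 0.19, adjusted p = 0.0189 by limma). Its groups did not overlap, but the highest treated and lowest control values were close, and its adjusted p was 0.0563 without control replicate 2 and 0.0674 without sulfasalazine replicate 2. Of the B-type cyclins, the partners of Cdk1, only Ccnb2 passed with all libraries. It rose from 4.31, 7.02 and 5.304 to 10.8, 9.402 and 18.9 FPKM, each treated library lying above each control (log2 difference 1.06 with SE 0.27, adjusted p = 0.00864 by limma). Its sulfasalazine replicate 3 was 1.88 times the mean of the other two. Ccnb1 had 24.5, 30.6 and 18.4 FPKM untreated and 10.2, 8.398 and 22.9 FPKM after the drug. Sulfasalazine replicates 1 and 2 lay below every control and replicate 3 lay among them. Its limma adjusted p was 0.0514 with all libraries and 0.00309 without sulfasalazine replicate 3. Of its 50-base words, 23.4% also occur in other genes, among them Ccnb1-ps.

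The other genes of entry showed the pattern of Ccnb1, with sulfasalazine replicates 1 and 2 below the controls and replicate 3 among or above them. Plk1, the polo-like kinase of entry and spindle assembly, had 40.98, 53.1 and 51.1 FPKM untreated and 30.1, 19.5 and 51.8 FPKM after the drug. Foxm1, a transcription factor of G2 and M genes, had 35.9, 46.4 and 39.9 FPKM untreated against 27.5, 21.6 and 58.9 FPKM treated, so that its sulfasalazine replicate 3 exceeded every control. Cdc25c, another activator of Cdk1, had 8.57, 10.1 and 6.45 FPKM untreated against 3.73, 2.799 and 7.71 FPKM treated. All 3 had lower levels in treated replicates 1 and 2 than in any control. They passed the test without sulfasalazine replicate 3, at adjusted p of 0.0074, 0.0104 and 0.00474, against 0.113, 0.435 and 0.0534 with all libraries. Cyclin A, encoded by Ccna2, acts in S and G2 phase. Ccna2 had 18.6, 22.5 and 15.1 FPKM untreated and 13.7, 10.9 and 30.8 FPKM after the drug. It passed only when replicate 3 of both groups was left out (log2 difference -0.69 with SE 0.15, adjusted p = 0.00455 by limma), against 0.0551 without sulfasalazine replicate 3 alone. Of the exonic bases, 12.5% of Ccna2, 12.7% of Cdc25c and 7.1% of Plk1 lie in a gene on the opposite strand.

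The Aurora kinases and their partners gave 3 falls among 6 genes and no rise. Aurka, the centrosomal Aurora kinase (chromosome 2, 172356190 to 172370535, GRCm38), had 99.9, 116 and 106 FPKM untreated and 19.9, 15.9 and 37.5 FPKM after the drug. Even its highest treated value was far below the lowest control (log2 difference -2.18 with SE 0.27, adjusted p = 0.000211 by limma). Tpx2, which activates Aurora A on spindle microtubules, fell from 46.9, 60.1 and 37.4 to 15.5, 11.5 and 30.2 FPKM without overlap (log2 difference -1.38 with SE 0.33, adjusted p = 0.00595 by limma). Cdca8 encodes borealin, a subunit of the chromosomal passenger complex that holds Aurora B. It fell from 50.9, 65.1 and 60.3 to 16.5, 15.01 and 28.5 FPKM (log2 difference -1.56 with SE 0.23, adjusted p = 0.000521 by limma). All 3 of these falls kept their call when any 1 library was left out.

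None of the other 3 genes of the passenger complex passed with all libraries. Incenp, the scaffold of the complex, had 64.1, 88.7 and 77.8 FPKM untreated and 52.7, 45.5 and 87.7 FPKM after the drug. Treated replicates 1 and 2 were below all controls, and replicate 3 was close to the highest. It passed without sulfasalazine replicate 3 (adjusted p = 0.0148, against 0.221 with all libraries). Aurkb, the kinase itself, ranged from 13.5 to 22.4 FPKM in the controls and from 17.3 to 42.4 FPKM with sulfasalazine, and Birc5, which encodes survivin, from 9.33 to 15.7 and from 9.86 to 25.8 FPKM. Neither passed with all libraries (adjusted p of 0.308 and 0.566) or without replicate 3 of both groups (0.511 and 0.358). In both genes the highest value of all libraries was sulfasalazine replicate 3.

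Of the 8 genes of the checkpoint and anaphase switch, 4 fell, and Pttg1 showed the largest change of any mitosis gene, in the other direction. Pttg1 encodes securin, the inhibitor of separase (chromosome 11, 43420250 to 43426251, GRCm38). It rose from 1.998, 1.76 and 2.44 FPKM untreated to 29.7, 23.4 and 25.5 FPKM after the drug (log2 difference 3.15 with SE 0.16, adjusted p = 5.63e-06 by limma). The mean was 2.07 ± 0.348 FPKM in the controls and 26.2 ± 3.23 FPKM with sulfasalazine (SD, n = 3 per group). Pttg1 was the only mitosis gene in which sulfasalazine replicate 3 was not the highest of its group. Ube2c, the ubiquitin-conjugating enzyme of the anaphase-promoting complex, fell from 92.5, 127 and 108 to 29.2, 20.4 and 59.6 FPKM (log2 difference -1.69 with SE 0.34, adjusted p = 0.00258 by limma). Of its exonic bases, 22.8% lie in Tnnc2 on the opposite strand. Cdc20, which activates the complex, had 66.7, 83.9 and 77.2 FPKM untreated and 34.3, 24.6 and 60.9 FPKM after the drug (log2 difference -1.0 with SE 0.29, adjusted p = 0.0145 by limma). The groups of Ube2c and Cdc20 did not overlap. Cdc20 had an adjusted p of 0.0569 without control replicate 2.

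The falls of checkpoint genes were smaller. Bub1b, which encodes BubR1, fell from 32.7, 34 and 35.4 to 20.9, 15.8 and 29.4 FPKM (log2 difference -0.65 with SE 0.21, adjusted p = 0.0229 by limma). Its adjusted p was 0.0634 without control replicate 2, 0.0651 without sulfasalazine replicate 1 and 0.0761 without sulfasalazine replicate 2. Bub3, the partner of both Bub kinases, fell from 70.8, 77.2 and 95.01 to 54.8, 57.5 and 63.4 FPKM (log2 difference -0.45 with SE 0.13, adjusted p = 0.0161 by limma). Neither gene had overlapping groups. For Bub3 the adjusted p was 0.0686 and 0.0561 without sulfasalazine replicates 1 and 2. The kinase gene Bub1 had 8.68, 13.3 and 4.88 FPKM untreated and 3.47, 3.01 and 9.14 FPKM after the drug, and Mad2l1, encoding Mad2, had 10.2, 13.8 and 9.14 FPKM untreated against 7.299, 6.49 and 16.9 FPKM treated. Both had control replicate 3 as the lowest control and sulfasalazine replicate 3 inside or above the controls. They passed without sulfasalazine replicate 3 (adjusted p of 0.028 and 0.0453) and not with it (0.159 and 0.609). Ttk, the Mps1 kinase, had the lowest level of the 42, at 0.814 to 2.60 FPKM in the controls and 0.602 to 2.11 FPKM with sulfasalazine. It rested on as few as 24 reads in a library, and no difference was detectable at this depth (limma adjusted p = 0.824, and 0.133 when replicate 3 was left out of both groups).

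None of the 6 centromere and kinetochore genes passed with all libraries, and 5 of the 6 were called lower without replicate 3 of both groups. Cenpa, the histone H3 variant that marks centromeres, had 28.4, 37.2 and 31.5 FPKM untreated and 15.9, 12.96 and 35.7 FPKM after the drug. Ndc80 and Nuf2 encode 2 subunits of the complex that binds spindle microtubules. Ndc80 had 3.98, 5.94 and 3.63 FPKM untreated and 1.47, 1.29 and 4.75 FPKM after the drug, and Nuf2 had 3.55, 3.98 and 3.55 FPKM untreated against 2.16, 1.86 and 7.15 FPKM treated. In all 3 genes treated replicates 1 and 2 lay below every control. In Nuf2 the third treated library was 3.56 times the mean of the other two, the largest such ratio of the 42 genes. Without sulfasalazine replicate 3 the adjusted p was 0.00175 for Cenpa, 0.00295 for Ndc80 and 0.00985 for Nuf2, against 0.0949, 0.0859 and 0.712 with all libraries.

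The 2 large kinetochore proteins were lowest in control replicate 3 among the controls. Cenpe, a kinetochore kinesin, had 16.98, 19.3 and 5.23 FPKM untreated and 4.05, 2.64 and 8.44 FPKM after the drug. Its control replicate 3 was 0.289 times the mean of control replicates 1 and 2, and its sulfasalazine replicate 3 lay above that library. The log2 fold change was -1.24 (SE 0.49, limma adjusted p = 0.0547) with all libraries, -1.62 (adjusted p = 0.0277) without sulfasalazine replicate 3, and -2.16 (SE 0.18, adjusted p = 3.95e-05) when replicate 3 was left out of both groups. Cenpf, which links kinetochores to dynein, had 4.56, 5.67 and 1.75 FPKM untreated and 3.696, 2.42 and 7.24 FPKM after the drug. Its log2 fold change was 0.13 (adjusted p = 0.794) with all libraries, -0.12 after quantile normalization and -0.6 (adjusted p = 0.0226) without replicate 3 of both groups, so that even its sign depended on the libraries used. Spc25, of the same complex as Ndc80, ranged from 3.35 to 4.01 FPKM in the controls and from 1.86 to 6.85 FPKM with sulfasalazine. It passed in neither fit (adjusted p of 0.829 and 0.051).

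Of 6 spindle genes, Kif11 fell and the other 5 did not pass with all libraries. Kif11 encodes the kinesin Eg5, which pushes the spindle poles apart. It had 7.42, 10.1 and 4.12 FPKM untreated and 2.297, 1.37 and 5.54 FPKM after the drug (log2 difference -1.07 with SE 0.40, adjusted p = 0.0442 by limma). Sulfasalazine replicate 3 exceeded control replicate 3, and the adjusted p was 0.11 to 0.156 without replicate 1 or 2 of either group. The chromokinesin gene Kif4 had 8.71, 10.1 and 6.08 FPKM untreated against 3.46, 2.23 and 7.43 FPKM treated. The centrosomal kinase gene Nek2 had 14.2, 16.9 and 13.1 FPKM untreated against 7.63, 6.34 and 16.2 FPKM treated. Dlgap5, which stabilises spindle fibres, had 12.99, 15.4 and 12.4 FPKM untreated against 7.13, 5.03 and 13.2 FPKM treated. In these 3 genes treated replicates 1 and 2 were below all controls and replicate 3 among them. Their adjusted p was 0.05005, 0.112 and 0.0607 with all libraries, and 0.00474, 0.00384 and 0.0039 without sulfasalazine replicate 3. Of the exonic bases of Kif4, 15.1% lie in Pdzd11 on the opposite strand.

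Hmmr encodes a protein that organises spindle microtubules. Hmmr had 17.4, 21.1 and 5.96 FPKM untreated and 7.21, 3.77 and 12.7 FPKM after the drug. Its control replicate 3 was below sulfasalazine replicates 1 and 3. That library was also the lowest control, so leaving it out raises the control mean. Hmmr did not pass without sulfasalazine replicate 3 (adjusted p = 0.0822), but passed without control replicate 3 (log2 fold change -1.31, adjusted p = 0.0154) and when replicate 3 was left out of both groups (log2 fold change -1.69, SE 0.25, adjusted p = 0.000651). Kif2c, a microtubule-depolymerising kinesin, ranged from 8.43 to 10.1 FPKM in the controls and from 9.73 to 22.6 FPKM with sulfasalazine. It did not pass (limma adjusted p = 0.0702, and 0.14 when replicate 3 was left out of both groups), but was called higher without sulfasalazine replicate 2 (log2 fold change 0.92, adjusted p = 0.0098).

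Of 6 cytokinesis genes, 3 fell and 1 rose, and Ect2 had the largest fall of the 42 genes. Ect2, the guanine nucleotide exchange factor that sets the division plane (chromosome 3, 27097222 to 27153878, GRCm38), fell from 37.9, 41.7 and 21.2 to 4.795, 3.63 and 11.7 FPKM (log2 difference -2.25 with SE 0.40, adjusted p = 0.0013 by limma). Anln, encoding the ring scaffold anillin (chromosome 9, 22332012 to 22389188, GRCm38), fell from 163, 176 and 107 to 29.2, 22.1 and 48.5 FPKM (log2 difference -2.17 with SE 0.29, adjusted p = 0.000312 by limma). Prc1, the bundler of midzone microtubules, fell from 78.4, 92.3 and 71.1 to 16.9, 14.5 and 36.1 FPKM (log2 difference -1.9 with SE 0.30, adjusted p = 0.00075 by limma). In all 3 the treated libraries lay below the controls, and the calls held when any 1 library was left out. In replicates 1 and 2 alone, Ect2 with sulfasalazine was 0.106 times the control level, Anln 0.151 times and Prc1 0.184 times. Of the exonic bases of Prc1, 11.1% lie in Rccd1 on the opposite strand.

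Kif20a encodes a kinesin that brings passenger proteins to the midzone. It rose from 11.3, 11.5 and 11.4 to 19.9, 14.5 and 33.3 FPKM (log2 difference 0.85 with SE 0.27, adjusted p = 0.0217 by limma), with adjusted p of 0.0557 and 0.0598 without control replicates 1 and 2. Of its exonic bases, 29.3% lie in Cdc23 on the opposite strand. Cdc23 itself stood at 28.1 to 31.1 FPKM in all 6 libraries (log2 fold change -0.05, adjusted p = 0.689). Kif23, the kinesin of the centralspindlin complex, had 24.7, 29.4 and 18.04 FPKM untreated and 12.1, 8.47 and 25.5 FPKM after the drug, and its partner Racgap1 had 50.4, 69.1 and 63.96 FPKM untreated against 41.6, 36.6 and 80.3 FPKM treated. Both were below every control in treated replicates 1 and 2, and Racgap1 was above every control in treated replicate 3. They passed without sulfasalazine replicate 3 (adjusted p of 0.00676 and 0.0154) and not with it (0.105 and 0.39).

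The 2 genes of mitotic chromosomes did not pass with all libraries. Top2a, the topoisomerase that untangles sister DNA, had 78.3, 109.5 and 59.7 FPKM untreated and 40.6, 26.5 and 89.8 FPKM after the drug (adjusted p = 0.122, and 0.00758 without sulfasalazine replicate 3). Mki67, the chromosome-coating antigen used to mark cycling cells, had 11.6, 15.1 and 4.29 FPKM untreated against 5.96, 3.85 and 14.6 FPKM treated. In Mki67 control replicate 3 lay between the treated libraries. Its adjusted p was 0.569 with all libraries, 0.164 without sulfasalazine replicate 3 and 0.000971 when replicate 3 was left out of both groups (log2 fold change -1.3, SE 0.21).

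**Figure D2:**
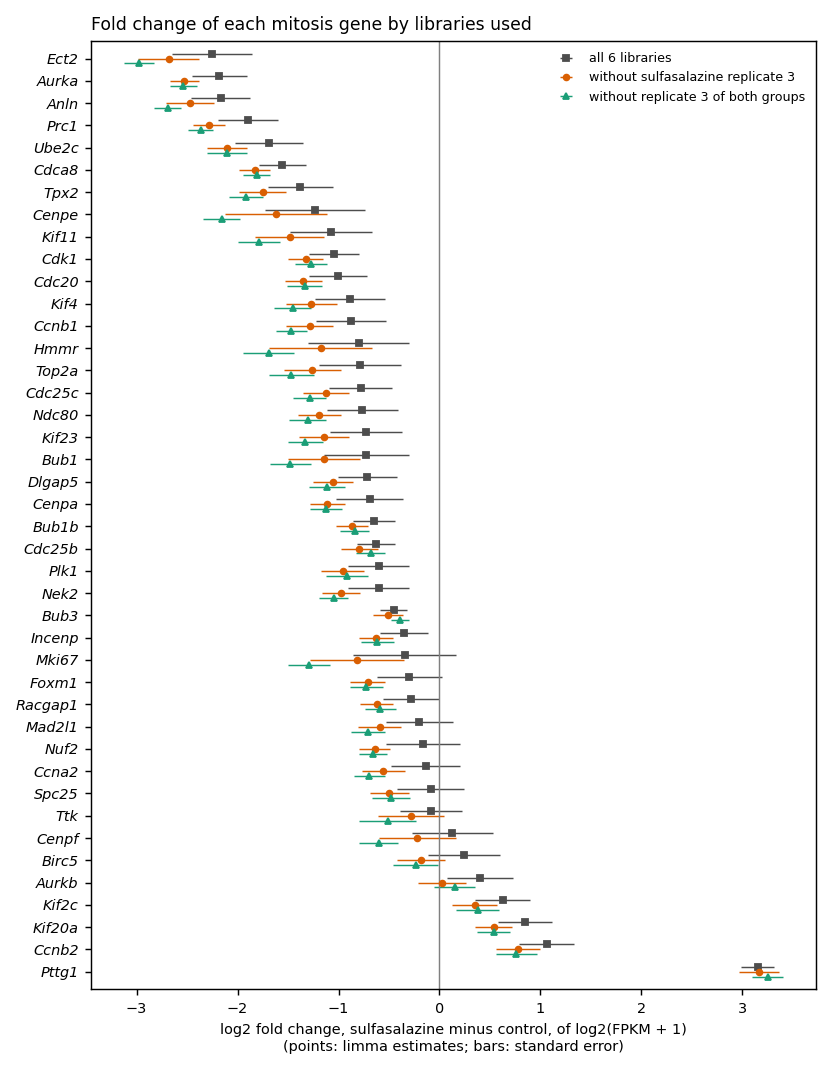
Fitted log2 fold change of each mitosis gene, sulfasalazine minus control on the log2(FPKM + 1) scale, with bars of 1 standard error, from all 6 libraries (grey squares), without sulfasalazine replicate 3 (orange circles) and with replicate 3 left out of both groups (green triangles). The median moves from -0.67 to -1.01 and -1.12, while Pttg1, Ccnb2 and Kif20a stay to the right of 0.

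Sulfasalazine replicate 3 stood apart from the other treated libraries in nearly every mitosis gene. It was the highest of its group in 41 of the 42 genes (97.6%, against 55.3% of all genes tested). It was at least 1.5 times the mean of replicates 1 and 2 in 39 of them (92.9%, against 8.33%) and at least 2 times in 30 (71.4%, against 2.79%). The 3 genes under 1.5 times were Cdc25b, Bub3 and Pttg1. Sulfasalazine replicate 2 was the lowest of its group in 41 genes (97.6%, against 44.7%). The mitosis genes summed to 734, 579 and 1304 FPKM in sulfasalazine replicates 1, 2 and 3, and to 1409, 1741 and 1398 FPKM in the controls. On the log2(FPKM + 1) scale, replicate 3 differed from the mean of replicates 1 and 2 by a median of 1.12 over the mitosis genes (range -0.05 to 1.44). Over all genes tested the median was 0.08, with 5th and 95th percentiles of -0.30 and 0.61.

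Relative to the controls, sulfasalazine replicate 3 divided the mitosis genes into 12 that lay below every control, 17 among the controls and 13 above every control. It was thus at or above the lowest control in 30 genes (71.4%), near the 66.2% of all genes tested. In 40.3% of all genes tested, all 3 sulfasalazine libraries lay above every control. Replicate 3 therefore did so in at least that share, and 13 of the 42 is no excess over it. The 13 above were Ccnb2, Ccna2, Foxm1, Aurkb, Birc5, Mad2l1, Pttg1, Cenpf, Nuf2, Spc25, Kif2c, Kif20a and Racgap1. The median of the ratio to the control mean was 1.06 in that library, whereas replicates 1 and 2 were at a median of 0.434 times control replicates 1 and 2. The median deviation was smaller over all genes with a similar decrease outside the 42. Of the genes lower by at least 1 on the log2 scale in replicates 1 and 2, 23 were mitosis genes, with a median deviation of sulfasalazine replicate 3 of 1.15. The 1789 other such genes had a median of 0.22. These 1789 include other genes of mitosis. Over the 36 other spindle and cytokinesis genes tested, whatever their change, the median was 1.08.

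**Figure D3:**
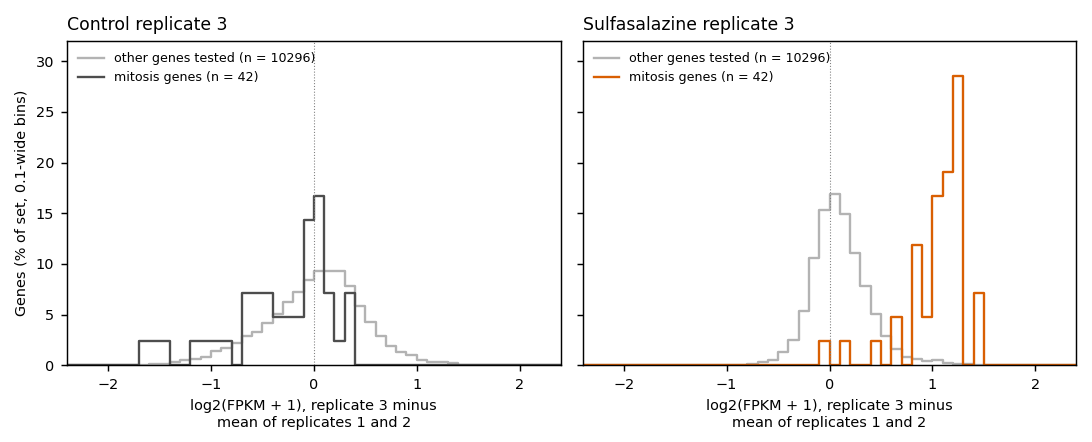
Share of genes by the difference of replicate 3 from the mean of replicates 1 and 2 of its group, on the log2(FPKM + 1) scale in bins 0.1 wide, for control (left) and sulfasalazine (right) libraries. The 42 mitosis genes with sulfasalazine (orange) have a median of 1.12, against a median near 0 for the 10296 other genes (light grey), and in the controls (dark grey) the mitosis genes have a tail to the left.

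Control replicate 3 differed from control replicates 1 and 2 in a less uniform way. It was the lowest control in 21 mitosis genes (37.8% of all genes) and the highest in 5 (11.9%, against 45.5%), namely Cdc25b, Aurkb, Bub1b, Bub3 and Pttg1. In 12 genes it was at most 0.67 times the mean of the other two (28.6%, against 14.7%): Bub1, Ttk, Cenpe, Cenpf, Kif11, Kif4, Hmmr, Kif23, Anln, Ect2, Top2a and Mki67. The median difference was -0.17 on the log2 scale over the mitosis genes (range -1.62 to 0.38), and 0.05 over all genes (5th and 95th percentiles of -0.85 and 0.74). Control replicate 2 exceeded control replicate 1 in 41 of the 42 genes (97.6%, against 43.0%).

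The difference of control replicate 3 varied with the GC content and length of the transcripts. Across 10332 tested genes, Spearman's rank correlation with GC content was 0.54 and with exonic length -0.39. Across the 42 mitosis genes the values were 0.63 and -0.54. The points share 1 library and genes are not independent replicates, so these values describe that library. Genes were divided into 4 equal bins. In the bin of lowest GC content the 15 mitosis genes had a median difference of -0.62 in control replicate 3, against -0.31 for all its genes. In the next bin the 16 mitosis genes had -0.11 and all genes -0.05. For sulfasalazine replicate 3, the rank correlation with GC content was -0.33 across all genes and -0.39 across the mitosis genes, but its difference over the mitosis genes was 0.94 to 1.22 in the 4 bins. In the 4 bins of length it was 1.04 to 1.15. The mitosis genes had a median GC content of 47.0%, against 49.9% for all genes.

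**Figure D4:**
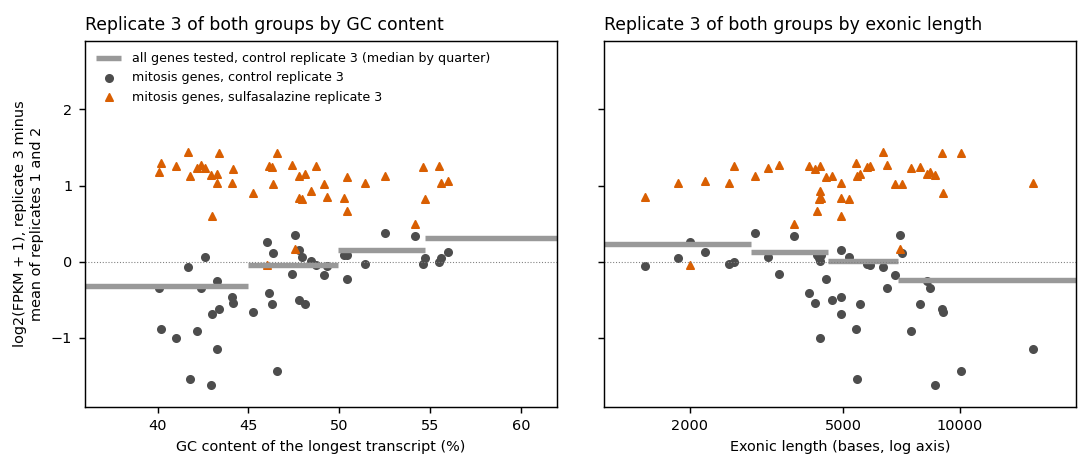
Difference of replicate 3 from the mean of replicates 1 and 2 of its group for each mitosis gene, against GC content (left) and exonic length on a log axis (right), in control (dark circles) and sulfasalazine (orange triangles) libraries. Grey bars are medians of all genes tested for control replicate 3 in 4 equal bins, from -0.31 to 0.31 by GC content. The dark circles fall to the lower left on GC content, and the orange triangles range from -0.05 (Pttg1) to 1.44, with a median of 1.12.

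In the ratio of 2 related genes within a library, a factor common to both cancels. These 5 pairs were chosen after their values were seen, so their ratios are a description and no test was made. The ratio of Aurkb to Aurka was 0.135, 0.181 and 0.211 in the controls and 1.04, 1.09 and 1.13 with sulfasalazine. The means were 0.176 ± 0.0382 and 1.09 ± 0.047 (SD, n = 3 per group), a 6.18-fold difference, and the treated libraries, replicate 3 included, lay within 1.09 times of each other. The ratio of Ccnb2 to Ccnb1 was 0.176, 0.2295 and 0.288 in the controls and 1.06, 1.12 and 0.828 with sulfasalazine, 4.34 times higher on average. For the midzone kinesins, Kif20a over Kif23 was 0.458, 0.391 and 0.634 in the controls and 1.65, 1.71 and 1.31 with sulfasalazine, 3.14 times higher. None of these 3 ratios overlapped between the groups. The ratios of Cdc25c to Cdc25b and of Bub1b to Bub1 overlapped. Cdc25c over Cdc25b was 0.156, 0.155 and 0.0849 in the controls and 0.0886, 0.0861 and 0.147 with sulfasalazine.

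**Figure D5:**
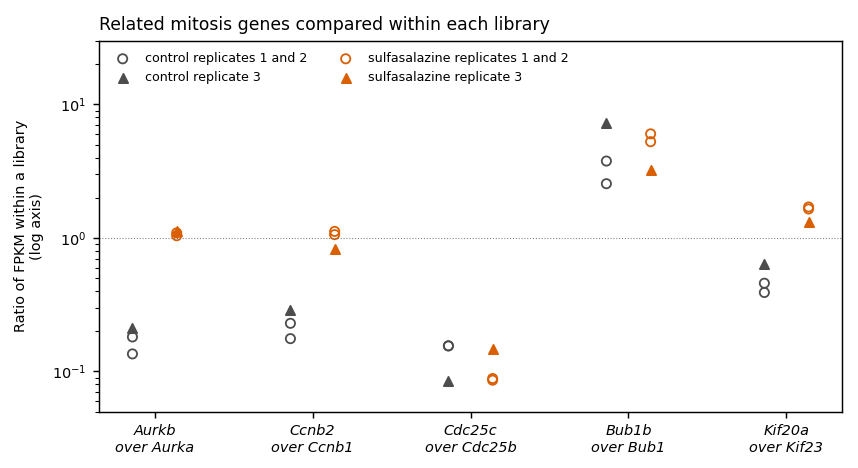
Ratio of the FPKM of 2 related mitosis genes within each library, on a log axis, for 5 pairs, with controls in grey, sulfasalazine in orange and triangles for replicate 3. Aurkb over Aurka is 0.135 to 0.211 in the controls and 1.04 to 1.13 with sulfasalazine, and the ratios of Cdc25c to Cdc25b and Bub1b to Bub1 overlap between the groups.

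The other genes of the mitotic machinery were read from 5 lists with 127 tested genes, of which 57 fell (44.9%) and 14 rose (11%), against 29.3% and 37.2% of all genes, with a median log2 fold change of -0.56. Without replicate 3 of both groups 88 were called lower (69.3%) and 14 higher (11%), against 36.8% and 41.0% of all genes. Sulfasalazine replicate 3 was the highest treated library in 112 of them, and in 55.3% of all genes. Among 20 condensin and cohesin genes, which compact and hold sister chromatids, 10 fell (50%) and 2 rose (10%), against 29.3% and 37.2% of all genes. Smc4, a condensin ATPase, fell from 152, 161 and 80.7 to 14.9, 10.05 and 27.3 FPKM (log2 difference -2.89 with SE 0.37, adjusted p = 0.000239 by limma), without overlap. Ncapg2, a condensin II subunit, had a log2 fold change of -1.71 and Sgo1, the protector of centromeric cohesin, of -1.39. Among 31 other kinetochore genes 15 fell (48.4%) and 2 rose (6.45%), against the same shares of all genes, with log2 fold changes of -1.77 for Spc24, -1.44 for Zwilch and -1.43 for Cenpq. Among 36 other spindle and cytokinesis genes 15 fell (41.7%) and 4 rose (11.1%), against 29.3% and 37.2% of all genes, and Kif18b, a kinesin that shortens astral microtubules, fell from 76.4, 74.2 and 81.6 to 12.5, 10.9 and 32.03 FPKM. The adjusted p of each gene named here was under 0.05. Sulfasalazine replicate 3 was the highest treated library in all 20 condensin and cohesin genes, all 31 kinetochore genes and 35 of the 36 spindle and cytokinesis genes. Its median difference from replicates 1 and 2 was 0.71, 0.77 and 1.08 in these lists.

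Of 17 genes of the anaphase-promoting complex and its partners (Fzr1, Fbxo5 and Ube2s), 7 fell (41.2%) and 4 rose (23.5%), against 29.3% and 37.2% of all genes. Anapc2 rose from 45.6, 41.5 and 60.6 to 152, 152 and 121 FPKM and Anapc5 from 27.9, 43.3 and 50.5 to 109, 108 and 131 FPKM, both without overlap. Cdc27 fell, with 35.4, 35.4 and 15.1 FPKM untreated and 11.4, 8.72 and 15.3 FPKM after the drug. The median difference of sulfasalazine replicate 3 in these 17 genes was 0.07, near the 0.08 of all genes. Of 24 genes of mitotic switch kinases, phosphatases and their partners, 11 fell (45.8%) and 2 rose (8.33%), against 29.3% and 37.2% of all genes, with a median difference of sulfasalazine replicate 3 of 0.22. Ppp2r2a, a PP2A subunit, fell from 152, 144 and 95.5 to 35.8, 36.9 and 37.5 FPKM, where replicate 3 was close to the other treated libraries, and Ppp2r2d, a relative of it, from 86.8, 87.6 and 110.1 to 36.2, 37.1 and 36.02 FPKM. The kinase gene Vrk1 fell from 17.1, 18.00 and 20.6 to 5.49, 4.59 and 7.62 FPKM. Wee1, the inhibitor of Cdk1, did not pass (limma adjusted p = 0.393), at 4.78, 5.58 and 4.84 FPKM untreated against 3.99, 3.35 and 5.800 FPKM treated.

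Of 25 regulators of cell-cycle transcription, 9 fell (36%) and 6 rose (24%), against 29.3% and 37.2% of all genes, with a median difference of sulfasalazine replicate 3 of 0.29. Cdkn1a, encoding the Cdk inhibitor p21, fell from 1399.9, 817 and 771 to 168, 157 and 150.3 FPKM (log2 difference -2.59 with SE 0.22, adjusted p = 3.17e-05 by limma). All 3 treated libraries agreed closely in that gene, replicate 3 included. Rbl2, which encodes the p130 protein of the DREAM complex, rose from 5.31, 2.74 and 5.48 to 23.7, 21.6 and 24.4 FPKM, and E2f1, an activator of S-phase genes, from 6.14, 6.63 and 10.99 to 12.1, 13.5 and 22.6 FPKM. Trp53, encoding p53, had 115, 109.8 and 141 FPKM untreated against 109, 114 and 123 FPKM treated and did not pass (adjusted p = 0.627). Mybl2, encoding B-Myb, had 8.67, 15.00 and 19.6 FPKM untreated against 8.25, 5.81 and 19.8 FPKM treated, with sulfasalazine replicate 3 again above the other two (adjusted p = 0.4).

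Genes of DNA replication, the other cycling program, were compared as well. The other mitosis genes above lay closer to the 42, with a median log2 fold change of -0.56 against -0.67. Of 49 tested, 12 fell (24.5%) and 11 rose (22.4%), against 29.3% and 37.2% of all genes, with a median log2 fold change of 0.15. Without replicate 3 of both groups 20 were called lower (40.8%) and 16 higher (32.7%), against 36.8% and 41.0% of all genes. Sulfasalazine replicate 3 was the highest treated library in all 49, with a median difference of 0.72 on the log2 scale, against 1.12 over the mitosis genes. Control replicate 3 differed there by a median of 0.43, against -0.17 over the mitosis genes. No test of the difference between these lists was made.

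The authors' deposited table gave adjusted p under 0.05 to 24 mitosis genes with lower levels (26.8% of all 14003 genes were so called) and to 3 with higher levels (28.2%). The authors' selection, which also required an absolute log2 fold change above 1, held 13 lower (16.1%) and 2 higher (18.8%). In the authors' deposited table Pttg1 had a log2 fold change of 3.57, Aurka of -2.25, Ect2 of -2.44 and Anln of -2.28. Cenpe, Kif4 and Hmmr were selected as lower there, at log2 fold changes of -1.58, -1.05 and -1.03 in the authors' deposited table, and did not pass limma with all libraries here.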

How the data were processed

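RNA of 3 control and 3 sulfasalazine samples was sequenced, and groups and replicate numbers came from the sample titles. The authors deposited 1 table with an FPKM value per gene and library, per the file headers; the sources used here do not give the gene length behind it. The same deposited table holds an adjusted signal per library, and the authors' log2 fold change and p-value per gene. The submitters' processing notes name HISAT2 2.2.1, HTSeq 0.13.5, fastp 0.23.0 and edgeR, with mm39 as the build, but the coordinates of the 42 genes are those of GENCODE M21 on GRCm38, the build given here. The use of strand in counting is not stated here, so reads of genes that overlap on opposite strands cannot be told apart.

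A gene was tested when 3 of the 6 libraries or more reached 1 FPKM. The test was limma 3.58.1 in R 4.3.3 (lmFit, eBayes with an intensity trend, two-sided) on log2(FPKM + 1), a scale that understates changes of low genes. P-values were adjusted by Benjamini-Hochberg over all genes tested, with a threshold of 0.05. The smallest p of an exact permutation test of 3 against 3 libraries is 0.1, so none was used. The fit was tested on simulated data in which no library stood apart, so that check does not cover the deviation of replicate 3. Whole reads were recovered from the FPKM, with the adjusted signal choosing among possible sets: 100.0% of values above 0 came out whole within 1e-05 reads, and 2369 genes had several possible sets. The recovered reads give the depth and an alternative test with voom.

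The members and lists were chosen with earlier results of these data known. Values in each library are given for genes called with all libraries and for those whose call changes without replicate 3 of both groups. Of each other list up to 3 called genes with the largest change could be named. Wee1, Mybl2, E2f1, Cdkn1a, Trp53, Ccne1, Mcm2 and Pcna could be named whatever their values. Levels of Ccne1, Mcm2 and Pcna are not printed. Alternatives were voom, a pseudocount of 0.1, quantile normalization, median-of-ratios scaling, no filter or one of 5 FPKM, a fit with no intensity trend, a block for the replicate number, each library left out, and replicate 3 of both groups left out. Promoters are from RefSeq.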

Additional observations from a re-analysis of the deposited data

How the results depend on the processing

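Over the 42 mitosis genes, falls numbered 13 with all libraries, 20 after median-of-ratios scaling, 20 after quantile normalization, 17 with voom on the recovered reads, 34 without replicate 3 of both groups, and 9 to 30 when 1 library was left out. Voom called 3021 genes lower and 3889 higher in all. Rises among the mitosis genes numbered 2 to 4 when 1 library was left out (4.76% to 9.52%, against 32.8% to 40.7% of all genes). They numbered 3 otherwise, against 30.5% to 41.0% of all genes. Of the 127 other mitosis genes, 88 fell without replicate 3 of both groups, against 57. DNA replication genes that fell numbered 7 to 20 with 1 library left out and 20 without replicate 3 of both groups, against 12. The shares of all genes called lower were 23.7% to 34.1%, 36.8% and 29.3% in these fits. Those that rose numbered 10 to 17 with 1 library left out (32.8% to 40.7% of all genes), against 11 (37.2%). Same-numbered libraries did not deviate together (correlations of 0.036, -0.194 and -0.174 for replicates 1, 2 and 3), and a fit with the replicate block called 12 mitosis genes lower (26.8% of all genes) and 3 higher (35.3%). The median log2 fold change of mitosis genes was negative under every alternative run, from -0.415 without sulfasalazine replicate 2 to -1.118 without replicate 3 of both groups. The median deviation of sulfasalazine replicate 3 was 1.018 to 1.22, and the median deviation of control replicate 3 was -0.176 to -0.128.

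Signs changed in genes that had not passed the test. With 1 library left out, the log2 fold change ranged from -0.556 to 0.151 for Ccna2, from -0.592 to 0.035 for Mad2l1, from -0.311 to 0.192 for Ttk, from -0.257 to 0.413 for Cenpf and from -0.181 to 0.471 for Birc5. It ranged from -0.641 to 0.115 for Nuf2, from -0.496 to 0.234 for Spc25, from -0.819 to 0.026 for Mki67 and from -0.14 to 0.037 for Trp53. Leaving out replicate 3 of both groups gave -0.603 for Cenpf, -0.235 for Birc5 and -0.067 for Pcna. Quantile normalization gave -0.122 for Cenpf and 0.01 for Trp53. The cause of these changes was not tested. Each group holds 3 libraries, 1 of which stood apart, and the depth of low genes (24 reads for Ttk in sulfasalazine replicate 2) limits what can be detected.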
